A study of Homo sapiens with 2 samples.

Results

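Integrins, laminins and focal adhesion proteins form the machinery by which a cell holds on to its matrix, and their transcripts were followed here in MDA-MB-231 cells treated with siRNA against KMO or with a control siRNA. The set was a list of 37 gene symbols, namely 12 integrin alpha chains, 8 integrin beta chains, 10 laminin chains and nidogens and 7 focal adhesion proteins, and each gene was represented by every probe set that the array's annotation assigns to it alone. Of the 37 genes, 35 had such a probe set, out of 19775 named genes on the array, and they were covered by 95 of its 54675 probe sets. ITGB6 shared its 4 probe sets with a non-coding RNA gene, and LAMA3 was not analysed here. A gene was taken at its probe set with the highest mean level over both arrays and was called measured where that mean was at least 6 log2 units, which held for 21 of the 35 genes and for 8997 genes in all.

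MDA-MB-231 is an established human line of triple-negative breast cancer. Per the labels, 1 array came from cells 48 h after transfection with a control siRNA and 1 from cells 48 h after transfection with siRNA against KMO (siKMO), which encodes the kynurenine-hydroxylating enzyme of tryptophan breakdown; the parental line and the culture medium were the same. The names given to the arrays contain shLUC and shK421, which look like short hairpin constructs, so whether siRNA or a hairpin was used is not settled. There were 2 arrays and no replicates, so each value below describes 1 pair of cultures, no test was made, and a difference carries no error between cultures. Levels are log2 values after robust multi-array averaging (RMA), a method that has no detection call and no true zero, and a difference of 1 is 2-fold. Levels of different genes are read by different probes and cannot be ranked against each other. In RNA from a whole culture, fewer cells making a transcript and less transcript per cell cannot be told apart.

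Integrins are pairs of 1 alpha and 1 beta chain that span the cell membrane. The alpha chain largely sets which ligand is bound, and the beta chain's short inner tail recruits talin and kindlins, which switch the receptor on and link it to actin through vinculin, paxillin and integrin-linked kinase. Laminins are cross-shaped trimers of an alpha, a beta and a gamma chain that polymerise into the basement membrane, where nidogens tie them to collagen IV. In epithelia the ITGA6 and ITGB4 pair anchors cells to laminin in hemidesmosomes, and breast cancer cells are known to use several of these receptors for invasion.

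The line and the arrays were checked first. All 5 markers of the line that were looked at (VIM, CD44, EGFR, KRT8 and KRT18) were measured, with differences from -0.12 to 0.17, the hormone receptor genes ESR1 and PGR lay under 6, and ERBB2 stood at 7.44 and 7.37. Of 16 genes of unrelated tissues such as liver, lens and testis, all lay under 6. KMO itself stood at 2.11 to 2.95 in control cells and 2.35 to 2.92 in siKMO cells over 3 probe sets, so the target gave no usable signal and does not check the labels. Both arrays had nearly the same distribution, with medians of 4.44 and 4.43. Of the 95 member probe sets, 8 (8.42%) had exactly the same value on both arrays, against 9.46% of all probe sets. The highest of the 8 stood at 5.73.

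Among the 21 measured members, 4 were lower in siKMO cells by at least 2-fold and 0 were at least 2-fold higher. Over all 8997 measured genes, 1.39% were at least 2-fold lower and 0.856% at least 2-fold higher. The 4 were the integrin beta chains ITGB2, ITGB3 and ITGB4 and the laminin chain LAMA5. ITGB3 passed the minimum only through the control array, and with levels under 6 set to 6 the count was 3, ITGB2, ITGB4 and LAMA5, against 1.23% of all measured genes, and 0 members were at least 2-fold higher, against 0.722%. At 1.5-fold, LAMB3 joined the lower side, making 5 members against 5.41% of all measured genes, and FERMT1 was the only measured member on the higher side, against 5.19%. The direction was lower for 16 of 21 members, whereas 44.1% of all measured genes were lower. The median difference was -0.18 over the members and 0.04 over all measured genes. By role, the medians were -1.07 for the 5 measured beta chains, -0.14 for the 5 alpha chains, -0.18 for the 5 laminin chains and 0.02 for the 6 focal adhesion proteins, so the 2-fold differences lay in the beta chains and a laminin. With levels under 6 set to 6 the median of the beta chains was -0.63. With all probe sets of a gene averaged, 1 member, LAMA5, was at least 2-fold lower, against 0.845% of all measured genes. LAMA5 has 1 probe set of its own, so averaging could not change its value. The median of the beta chains was then -0.42.

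**Figure D1:**
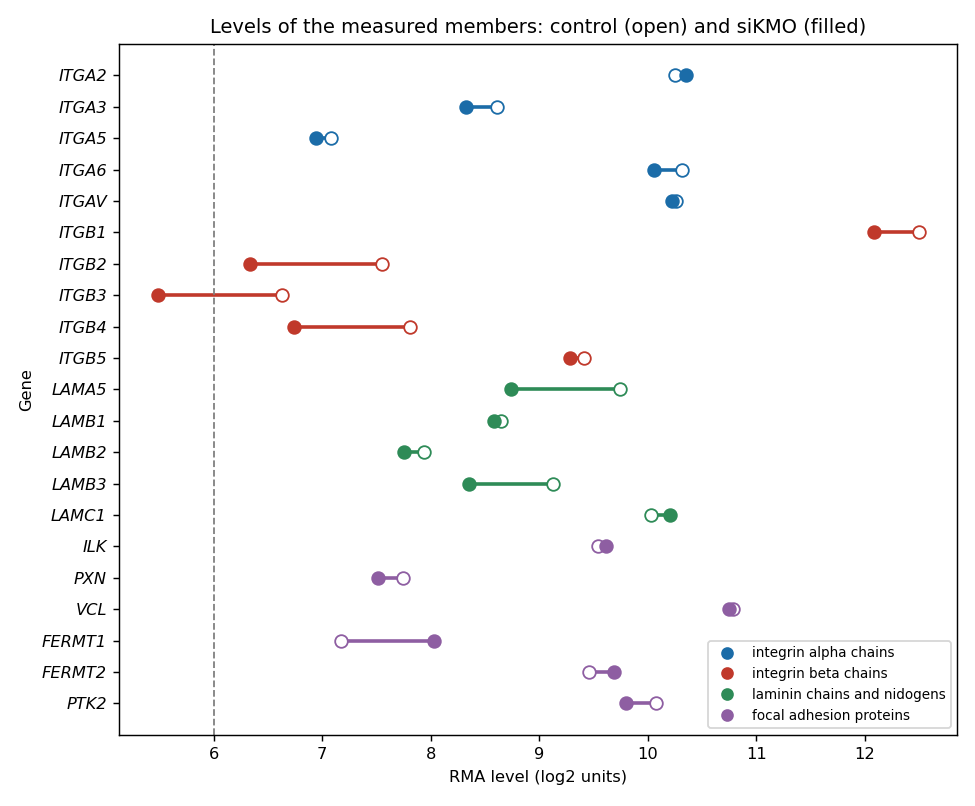
RMA levels in log2 units (x axis) of the 21 measured members (y axis), in the control array (open circles) and the siKMO array (filled circles), 1 array each; colours give the role and the dashed line marks the minimum of 6. The longest lines run to the left for ITGB2, ITGB3, ITGB4 and LAMA5, and the line of FERMT1 runs to the right from 7.17 to 8.03.

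The widest differences among the measured members were those of beta chains. ITGB2, the chain shared by the integrins of white blood cells, stood at 7.55 in control cells and 6.34 in siKMO cells, a 2.31-fold lower level. Its second probe set at this level gave 7.09 and 6.02, a difference of -1.07, and the remaining one, with a mean under 6, gave 5.75 and 5.36. All 3 probe sets of ITGB2 were thus lower in the siKMO array, and 55 of the 8997 measured genes had a lower difference. The alpha chain that ITGB2 pairs with on lymphocytes, ITGAL, lay at 3.31 on both arrays, and its other partners ITGAM, ITGAX and ITGAD also lay under 6. Of the leukocyte markers PTPRC, CD3E, CD14, LCP2, CD53 and CD37, 6 of 6 lay under 6, from 3.29 to 5.19 in control cells and 2.98 to 5.01 in siKMO cells, with differences of -0.41 to 0.22.

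ITGB4 encodes the long-tailed beta chain of hemidesmosomes, whose only known partner is ITGA6. It stood at 7.81 in control cells and 6.74 in siKMO cells, a 2.10-fold lower level; 97 of the measured genes had a lower difference. The other 4 ITGB4 probe sets all had means under 6 and did not share a direction. They gave 5.74 and 4.71, 4.62 and 4.25, 3.54 and 3.90, and 2.64 and 3.14 in the control and siKMO arrays. The 2-fold value of ITGB4 therefore rested on a single probe set, with the next brightest one lower by a like amount (-1.03), and the mean over all 5 was -0.32.

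ITGB3, which pairs with ITGAV to bind vitronectin and other ligands with an RGD motif, stood at 6.63 in control cells and 5.48 in siKMO cells. With the weaker level taken as 6, the siKMO level of ITGB3 was 1.55-fold lower, and the mean difference over all 7 probe sets was -0.58. The 6 other probe sets of ITGB3 all lay under 6 on average, and all were lower in the siKMO array, by -0.83 to -0.24. All 7 probe sets of ITGB3 were thus lower, although its brightest one passed the minimum only through the control array.

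ITGB1 is the common partner of most collagen, laminin and fibronectin receptors. It stood at 12.50 in control cells and 12.09 in siKMO cells, a difference of -0.41, and its 2 other probe sets above 6 gave -0.55 and -0.56. The size was under 1.5-fold. Of the 8997 measured genes, 853 had a lower difference than ITGB1, and of the 104 within 0.5 of its mean level, 2 had. ITGB5, another partner of ITGAV, stood at 9.41 and 9.28, a difference of -0.13, while its second probe set above 6 gave -0.51. All 5 measured beta chains were lower in the siKMO array with the brightest probe set, against 44.1% of all measured genes. The same held for all 9 of their probe sets above the minimum. Both counts include ITGB3, which passed the minimum only through the control array.

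**Figure D2:**
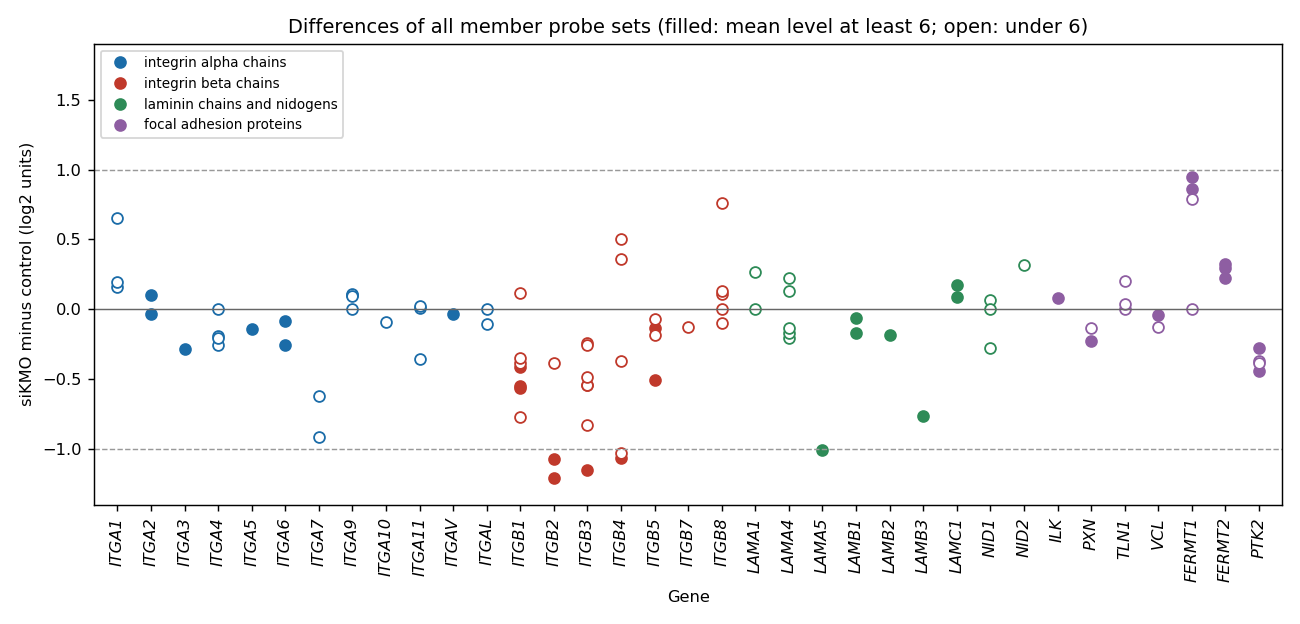
Difference siKMO minus control in log2 units (y axis) of all 95 probe sets of the 35 genes (x axis), filled where the mean level was at least 6 and open where it was under 6; dashed lines mark 2-fold. The filled points of ITGB2, ITGB3, ITGB4 and LAMA5 lie under the lower line, and the open points of ITGB4 lie on both sides of 0.

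The alpha chains differed little, including those that pair with the beta chains just described. ITGA6, the partner of both ITGB4 and ITGB1 in laminin receptors, stood at 10.31 in control cells and 10.06 in siKMO cells, a difference of -0.25, and its second probe set gave -0.09. ITGAV, the partner of ITGB3 and ITGB5, stood at 10.26 and 10.22. ITGB4 differed by -1.07 and its partner ITGA6 by -0.25. ITGB3 was lower by 0.63 with its weaker level taken as 6, and its partner ITGAV differed by -0.04. ITGA3, a laminin receptor chain, stood at 8.61 and 8.32, a difference of -0.28. The fibronectin receptor chain ITGA5 stood at 7.08 and 6.94. ITGA2, a collagen receptor chain, was the only measured alpha chain on the higher side (10.25 and 10.35), and its second probe set gave -0.03, so it had no settled direction. None of the 5 reached 1.5-fold, against 5.41% of all measured genes lower and 5.19% higher by that much. A count over 5 genes cannot be told apart from those shares.

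Of the laminin chains, the 2 with the largest differences belong to different trimers. LAMA5, the alpha chain of the most widespread epithelial basement membrane laminins, stood at 9.75 in control cells and 8.74 in siKMO cells, a 2.01-fold lower level that sits at the edge of the 2-fold count. Of the 8997 measured genes, 119 had a lower difference than LAMA5, and of the 1514 within 0.5 of its mean level, 8 had. LAMA5 had 1 probe set of its own; another, shared with the antisense gene LAMA5-AS1, lay under 6 at 5.77 and 5.55. LAMB3, a laminin beta chain of epithelia, stood at 9.12 and 8.36, a 1.70-fold lower level, and was also read by 1 probe set. The chains that complete the LAMA5 trimers differed less: LAMB1 stood at 8.64 and 8.58, LAMB2 at 7.94 and 7.75, and LAMC1, the common gamma chain, at 10.03 and 10.20. LAMC1 was the only one of the 5 on the higher side, with its second probe set at 0.09. Both probe sets of LAMB1 were lower, by -0.17 and -0.06.

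The promoters of these 5 laminin genes are shown because the chains of 1 family differed unequally: LAMA5 and LAMB3 were lower by at least 1.5-fold, and the 3 others were not. Each line gives the 250 bases before the gene's start from RefSeq (GRCh38.p14), 5′ to 3′ on the gene's own strand. In the order of the lines, the windows are chr20:62367313-62367562 (minus strand), chr1:209652426-209652675 (minus strand), chr7:108003162-108003411 (minus strand), chr3:49133051-49133300 (minus strand) and chr1:183023170-183023419 (plus strand). Capitals mark matches on either strand to GGGCGG, the GC box of SP family factors, or CAGGTG, an E-box.
LAMA5: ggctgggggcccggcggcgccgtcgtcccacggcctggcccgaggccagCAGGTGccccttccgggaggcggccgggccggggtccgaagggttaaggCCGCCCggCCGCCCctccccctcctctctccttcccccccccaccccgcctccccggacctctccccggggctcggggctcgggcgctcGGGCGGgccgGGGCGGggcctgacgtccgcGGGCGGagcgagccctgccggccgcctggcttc
LAMB3: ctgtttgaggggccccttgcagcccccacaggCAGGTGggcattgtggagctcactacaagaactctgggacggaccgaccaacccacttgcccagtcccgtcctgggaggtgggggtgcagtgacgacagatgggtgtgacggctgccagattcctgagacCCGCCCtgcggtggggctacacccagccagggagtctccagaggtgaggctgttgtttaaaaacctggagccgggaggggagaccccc
LAMB1: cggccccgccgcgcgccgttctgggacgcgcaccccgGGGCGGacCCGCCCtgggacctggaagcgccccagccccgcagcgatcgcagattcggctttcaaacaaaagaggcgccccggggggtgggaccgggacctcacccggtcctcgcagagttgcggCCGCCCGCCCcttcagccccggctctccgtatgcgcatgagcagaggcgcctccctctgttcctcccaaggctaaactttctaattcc
LAMB2: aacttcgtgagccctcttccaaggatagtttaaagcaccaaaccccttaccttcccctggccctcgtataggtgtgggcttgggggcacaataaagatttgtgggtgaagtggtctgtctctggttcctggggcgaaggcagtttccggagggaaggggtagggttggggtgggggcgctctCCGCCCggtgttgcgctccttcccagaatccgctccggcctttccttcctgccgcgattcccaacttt
LAMC1: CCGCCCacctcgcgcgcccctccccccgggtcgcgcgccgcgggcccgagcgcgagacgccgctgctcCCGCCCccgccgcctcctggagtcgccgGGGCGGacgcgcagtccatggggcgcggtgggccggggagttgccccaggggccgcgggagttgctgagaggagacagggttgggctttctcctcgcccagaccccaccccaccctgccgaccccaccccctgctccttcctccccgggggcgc

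The letters GGGCGG were in all 5 windows, 5 times before LAMA5, 4 times before LAMB1, where the last pair overlap each other, 3 times before LAMC1 and once each before LAMB2 and LAMB3. They were also in 42.3% of all 27305 promoters of this length and in 70.0% of the 7554 promoters of measured genes. The letters CAGGTG were before LAMA5, 201 to 196 bases upstream, and before LAMB3, 218 to 213 bases upstream, and not in the windows of LAMB1, LAMB2 and LAMC1. They were in 17.5% of all promoters and in 14.6% of those of measured genes. Of the 15 measured members with a promoter in the table, 4 had them. Besides LAMA5 and LAMB3 these were ITGA6 and PXN, which differed by -0.25 and -0.23. Being lower was not particular to these 4, since 16 of the 21 measured members were lower. RefSeq lists 3 starts for LAMB3, of which the outermost is shown, and 1 of the 3 had CAGGTG and 1 had TGANTCA, the AP-1 letters. TGANTCA, the TEAD letters GGAATG and TATAAA were not in the 5 windows shown, against 6.60%, 11.9% and 11.1% of all promoters and 3.57%, 9.28% and 4.75% of those of measured genes. These matches are descriptions of letters, and binding was not measured. Of the 37 listed genes, 27 had a promoter in the table; those of ITGB2, ITGB3, ITGB4 and FERMT1 were not among them.

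The nidogens lay under 6. The brightest of 3 NID1 probe sets gave 4.31 and 4.37 and the single NID2 probe set 2.72 and 3.04 in the control and siKMO arrays. LAMA1, at 3.11 and 3.37, and LAMA4, at 4.56 and 4.35, were also under 6, so their differences lie in the range where the array reads mostly background.

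Among the focal adhesion proteins, the kindlins went the other way. FERMT1, or kindlin-1, the epithelial member of the family that binds beta tails together with talin, stood at 7.17 in control cells and 8.03 in siKMO cells, a 1.82-fold higher level. Its second probe set above 6 gave 6.89 and 7.84, a difference of 0.94, and a further one gave 5.48 and 6.27, while the fourth lay at 3.54 on both arrays. The 3 brightest probe sets of FERMT1 were thus all higher by 0.79 to 0.94, and 131 of the 8997 measured genes had a higher difference. FERMT2, or kindlin-2, the broadly expressed member, stood at 9.46 and 9.69, with differences of 0.23 to 0.33 over 3 probe sets. Both kindlins were higher in the siKMO array by every probe set above 6, FERMT2 by less than 1.5-fold.

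The other linkers and kinases of the adhesion site differed by less than 1.5-fold, as did most measured genes. Over all measured genes, 5.41% were at least 1.5-fold lower and 5.19% at least 1.5-fold higher. PTK2, the focal adhesion kinase that integrin clustering activates, stood at 10.07 in control cells and 9.80 in siKMO cells, a difference of -0.28. Its 3 other probe sets, of which 1 was above 6, gave differences of -0.45 to -0.37, so all 4 were lower. The scaffold paxillin, PXN, stood at 7.75 and 7.52, a difference of -0.23. Vinculin, VCL, which reinforces the link to actin, stood at 10.79 and 10.75, and integrin-linked kinase, ILK, an adaptor at beta tails, at 9.54 and 9.62. Talin, TLN1, lay under 6 with all 3 probe sets, the brightest at 5.73 on both arrays.

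**Figure D3:**
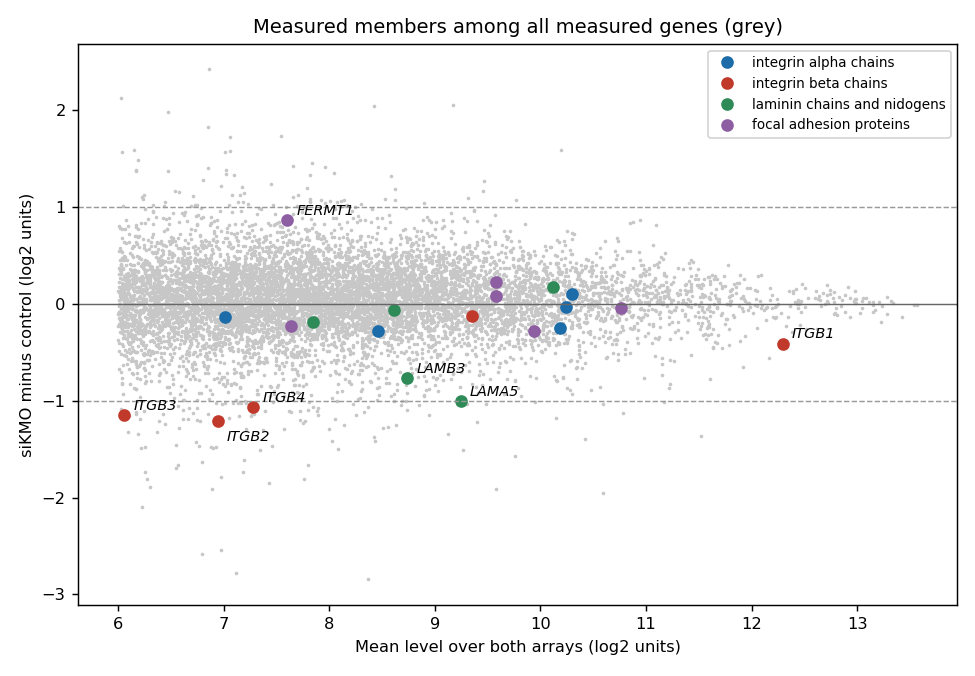
Difference siKMO minus control (y axis, log2 units) against the mean level over both arrays (x axis, log2 units) for the 8997 measured genes in grey, with the 21 measured members coloured by role and those differing by at least 0.4 named; dashed lines mark 2-fold. ITGB1, at a difference of -0.41, lies at the lower edge of the genes of its level, and LAMA5 lies at the 2-fold line.

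Agreement between probe sets was counted over all members. Of 10 members with at least 2 probe sets above 6, 9 had all of them in 1 direction, ITGA2 being the exception. Over all genes the same held for 2740 of 3777 (72.5%). Of the members at least 2-fold lower, the 10 include ITGB2 but not ITGB3, ITGB4 and LAMA5. Those had 1 probe set each with a mean of at least 6. Probe sets of a gene test how a transcript was read, not how the treatment varies between cultures.

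The 14 members under the minimum are accounted for as follows. They are ITGA1, ITGA4, ITGA7, ITGA9, ITGA10, ITGA11, ITGAL, ITGB7, ITGB8, LAMA1, LAMA4, NID1, NID2 and TLN1, with brightest levels of 2.40 to 5.73 in control cells and 2.21 to 5.73 in siKMO cells. Their differences ran from -0.62 to 0.76. The lowest was ITGA7, a laminin receptor chain of muscle, at 5.07 and 4.45, and its second probe set gave 4.29 and 3.38. The highest was ITGB8, a chain that activates latent TGF-beta together with ITGAV, at 2.58 and 3.34, but its 4 other probe sets differed by -0.10 to 0.13. The collagen receptor chain ITGA1 stood at 5.26 and 5.42. ITGA4, a chain of white blood cells that binds VCAM1, lay between 1.51 and 2.40 in all 4 of its probe sets on both arrays.

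Other genes of the same machinery were taken from separate lists, set side by side in the plot of members by role and other adhesion lists. Of 43 other integrin adaptor and signalling proteins, 29 were measured, with a median of -0.03. Of these, 13 were higher and 16 lower, whereas 44.1% of all measured genes were lower. At least 2-fold different were 0, against 1.39% of all measured genes lower and 0.856% higher. At least 1.5-fold lower was 1, against 5.41% of all measured genes. That 1 was TNS4, a tensin that binds beta tails, at 8.09 in control cells and 7.25 in siKMO cells, a 1.78-fold lower level. The 2 next largest in size were on the higher side: the paxillin relative TGFB1I1 (8.32 and 8.76) and the actin cross-linker ACTN1 (10.90 and 11.31, with 0.38 to 0.54 over 3 probe sets). The median of these adaptors lay close to that of all measured genes, 0.04.

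Taken at the brightest probe set, the partners of ITGB4 in hemidesmosomes were lower by less than ITGB4 itself. With all its probe sets averaged ITGB4 differed by -0.32, a size like those of these partners. All 3 measured ones were lower, against 44.1% of all measured genes. The tetraspanin CD151 stood at 8.68 in control cells and 8.33 in siKMO cells, the plakin DST at 9.87 and 9.63 and plectin, PLEC, at 7.99 and 7.76. Their median was -0.23. With the brightest probe set 0 of 3 reached 1.5-fold, against 5.41% of all measured genes at least 1.5-fold lower, a share that 3 genes cannot be told apart from. Among 8 measured partners of laminin in the basement membrane, 6 were lower, against 44.1% of all measured genes, and the median was -0.24. At least 1.5-fold lower were 3, against 5.41% of all measured genes. Those were NTN4, a netrin that binds laminin gamma chains, at 8.71 and 7.91, perlecan, HSPG2, at 7.86 and 7.18, and the collagen IV chain COL4A5 at 8.50 and 7.83. Each of the 3 was read by 1 probe set above 6.

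Of 9 measured integrin ligands, taken at the brightest probe set of each, 7 were lower, against 44.1% of all measured genes. Their median was -0.10, and 1 was at least 2-fold higher, against 0.856% of all measured genes. That was fibronectin, FN1, the main ligand of the ITGA5 and ITGB1 pair, at 9.40 in control cells and 10.99 in siKMO cells, a 3.00-fold higher level. Its receptor chains did not share that direction: ITGA5 differed by -0.14 and ITGB1 by -0.41. Thrombospondin-1, THBS1, a matrix protein that binds several integrins, was singled out after its values were seen, because its probe sets disagreed in size. Its brightest probe set gave 10.81 in control cells and 11.13 in siKMO cells, a difference of 0.32, and the next brightest pair gave 0.64 and 0.70. A further THBS1 probe set stood at 6.21 and 8.75, a 5.82-fold higher level. The last stood at 4.82 and 8.56, 5.91-fold higher with the weaker level taken as 6. All 5 THBS1 probe sets with a mean above the minimum were higher. The last of them passed the minimum only through the siKMO array, where it was high, so it does not count for the direction. The size of the THBS1 difference was not settled. The ligands at least 1.5-fold lower numbered 2, against 5.41% of all measured genes. ICAM1, the ligand of ITGB2 integrins, stood at 9.53 and 8.82 and was lower by 3 of 3 probe sets, and MFGE8, a ligand of ITGAV integrins, stood at 6.77 and 6.09. Of the 10 integrin and laminin chains outside the 37, 1 was measured, ITGAE, at 9.87 on both arrays.

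**Figure D4:**
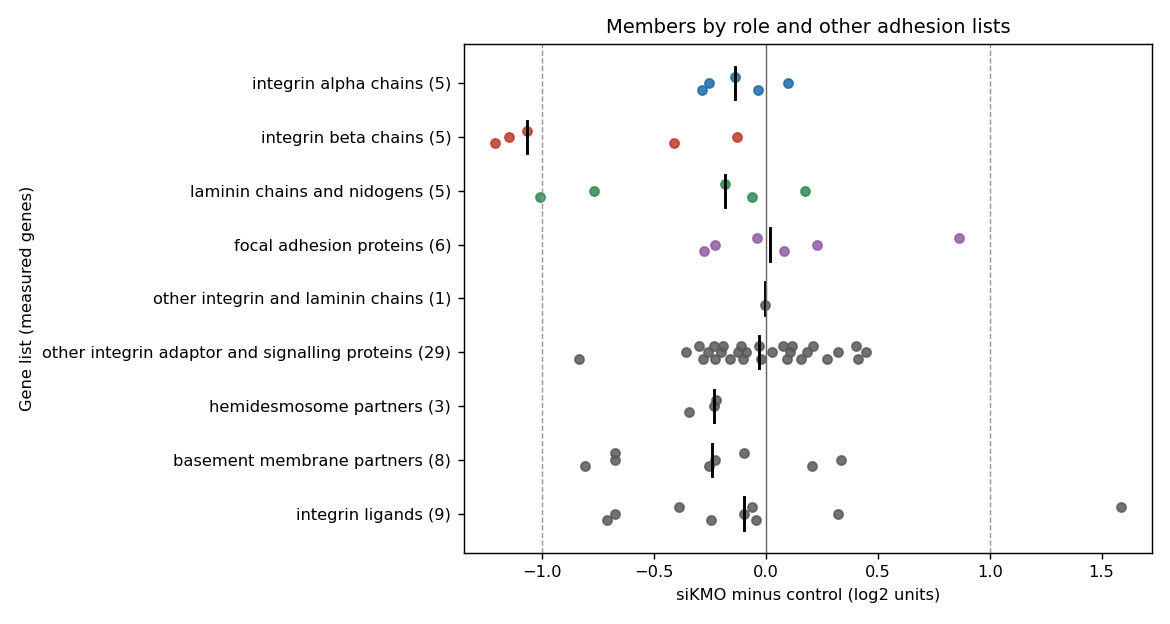
Difference siKMO minus control (x axis, log2 units) of the measured genes of the 4 member roles (coloured) and of 5 other adhesion lists (grey), each list on its own line of the y axis with its number of genes; black bars are medians and dashed lines mark 2-fold. The beta chains lie furthest to the left, with a median of -1.07 from the deposited values, and the point at 1.59 is FN1.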

How the data were processed

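RNA of both cultures was read on Affymetrix U133 Plus 2.0 arrays. Per the labels, the authors summarised each probe set by robust multi-array averaging (RMA), and the deposited values are log2 levels. Affymetrix Expression Console is the program named in the submitters' processing notes, with no version. RMA equalises the distributions, so a shift common to all transcripts cannot be seen, and it compresses differences of weak genes. Probe sets were named through the platform annotation, with symbols updated by gene identifier (41037 of 41091 probe sets of 1 gene matched); 1801 probe sets of several genes named none. Python 3.11.15 and pandas 2.3.3 computed siKMO minus control, counts at 2-fold and 1.5-fold and medians, with no test, since each group has 1 array. All members could be named, and from each other list up to 3 measured genes with the largest differences. The planned protein sequences could not be shown. The members and lists were chosen with earlier results of these data known and the laminin promoters after seeing values. Simulated data with known changes were used to test the scripts' arithmetic. Alternatives changed the probe set rule, the minimum level, the scaling and the fold.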

Additional observations from a re-analysis of the deposited data

How the results depend on the processing

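The 4 members at least 2-fold lower became 1 when all probe sets of a gene were averaged, 1 with only probe sets not ending in _x_at or _s_at (14 members left) and 2 at a minimum level of 7 (19 members left), where ITGB2 and ITGB3 were no longer measured. The 0 members at least 2-fold higher became 1 at 1.5-fold. The median of the beta chains, -1.07, was -0.42 with all probe sets averaged, -0.55 with only probe sets not ending in _x_at or _s_at, -0.41 with no minimum level, -0.41 at a minimum of 7 and -0.63 with levels under 6 set to 6. With levels under 6 set to 6, 3 members were at least 2-fold lower, without ITGB3. The cause of these shifts was not tested. In the other 49 recomputed counts and medians the value moved by less than 1.5 times or by less than 0.18 log2 units, the spread between probe sets of one gene over 3777 genes. The median of the focal adhesion proteins lay between -0.08 and 0.02, without a settled sign. ITGB2 ran from -1.25 to -0.89, ITGB4 from -1.11 to -0.32 and FERMT1 from 0.65 to 0.90, with no change of sign. LAMA5 ran from -1.05 to -1.01, but it has 1 probe set of its own, so averaging over probe sets could not move it. The rule without _x_at or _s_at left LAMA5 out. No paired analysis was possible because each group has 1 array. The number of arrays limits the precision, and genes near background have compressed differences.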

Other observations

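The 4 probe sets that the annotation gives to both ITGB6 and LINC02478 entered no comparison. They stood at 2.16 to 3.86 in control cells and 2.06 to 3.74 in siKMO cells, with differences of -0.13 to -0.10, all under the minimum level.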
